A study of Mus musculus with 12 samples.

Results

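The complement and coagulation genes of the mouse liver were examined as 40 genes found by symbol in the gene table, of 24532 genes in all. Of these, 18 belong to complement, 20 to clotting and the lysis of clots, and 2 (*Serping1* and *Vtn*) to both systems. Each symbol stood in the table once, and all 40 genes passed the filter on low counts that kept 14038 genes. RNA-seq was made from 12 livers of male C57BL/6 mice in 4 groups of 3 livers each. WT mice were *Ahr* fl/fl littermates without Cre, and *Ahr* HKO mice were *Ahr* fl/fl Alb-Cre mice, in which the albumin promoter drives Cre in hepatocytes. Both genotypes therefore carried loxP sites around exon 2 of *Ahr*, which encodes the aryl hydrocarbon receptor (AhR), and in *Ahr* HKO mice only hepatocytes were meant to lose that exon. The mice were 10 to 12 weeks old at the start and received a control liquid diet (con) or a Lieber-DeCarli diet with 5% ethanol by volume, or 36% of calories (EtOH), for 5 weeks.

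Complement and coagulation are cascades of plasma proteins, most of them made by hepatocytes, in which each protease cleaves and activates the next. Complement starts from the C1 proteases or from mannose-binding lectins with their MASP proteases, passes through the convertases built from C2, C4, C3 and factor B, and ends with C5 to C9, which form a pore in the target membrane. Coagulation ends when thrombin turns fibrinogen into fibrin, and several of its genes, with the fibrinogen genes foremost, belong to the acute phase response of the liver.

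Between 46306518 and 74336255 reads fell on genes in a library, and 3 counts, taken as the smallest detectable level, corresponded to 0.0425 to 0.0676 CPM (counting error only). The 40 genes took between 3.76% and 8.44% of the counts of a library. Markers of hepatocytes, 7 of 8 listed symbols being in the table, summed to between 70210 and 112516 CPM and none was at 0. *Ahr* itself stood at 20.1, 16.6 and 18.3 CPM in WT con livers, at 30.5, 20.8 and 23.4 CPM in WT EtOH livers, at 65.5, 41.3 and 63.3 CPM in libraries labelled *Ahr* HKO con and at 41.8, 32.1 and 24.7 CPM in libraries labelled *Ahr* HKO EtOH. On the control diet *Ahr* was thus higher, not lower, in the libraries labelled knockout (log2 FC 1.63 ± 0.19, adjusted *P* = 0.00167 in edgeR). Counts per gene do not separate exon 2 from the rest of *Ahr*, nor hepatocytes from other cells of the liver, so they do not check its deletion. *Ahr* HKO means the libraries labelled so throughout, and every direction between genotypes rests on these labels.

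Promoter sequences of RefSeq (build GRCm38.p6) were at hand for 31 of the 40 genes. They are shown for genes that the results turn on, the 3 fibrinogen genes and *C6*, *C9*, *C8b*, *F11* and *Klkb1*. Each stretch is written 5′ to 3′ on the strand of the gene and ends before the first base that RefSeq or GENCODE places in the gene. The stretches are chr3:83025903-83026075 (*Fga*, + strand), chr3:83049864-83050113 (*Fgb*, - strand), chr3:83007474-83007723 (*Fgg*, + strand), chr15:4726960-4727066 (*C6*, + strand), chr15:6445096-6445326 (*C9*, + strand), chr4:104766067-104766316 (*C8b*, + strand), chr8:45262056-45262281 (*F11*, - strand) and chr8:45294860-45295085 (*Klkb1*, - strand). Capitals mark matches, on either strand, to the liver motifs GTTAAT (HNF1) and TTGCNNAA (C/EBP) and to the acute phase motifs CTGGGAA (IL-6 response) and TTCNNNGAA (STAT).
Fga: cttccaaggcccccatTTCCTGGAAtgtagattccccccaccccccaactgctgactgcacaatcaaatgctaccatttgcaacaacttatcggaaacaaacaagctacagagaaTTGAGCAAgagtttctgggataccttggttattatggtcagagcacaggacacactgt
Fgb: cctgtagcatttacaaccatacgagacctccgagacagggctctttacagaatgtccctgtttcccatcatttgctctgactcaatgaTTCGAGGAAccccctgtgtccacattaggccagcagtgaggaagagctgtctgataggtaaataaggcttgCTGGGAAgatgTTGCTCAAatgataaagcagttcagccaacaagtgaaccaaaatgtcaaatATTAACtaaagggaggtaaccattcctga
Fgg: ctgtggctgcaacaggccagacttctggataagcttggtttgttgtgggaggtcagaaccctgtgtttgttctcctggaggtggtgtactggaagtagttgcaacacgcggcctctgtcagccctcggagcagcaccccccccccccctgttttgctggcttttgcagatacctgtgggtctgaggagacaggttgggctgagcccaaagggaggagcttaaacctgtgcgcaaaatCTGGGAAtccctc
C6: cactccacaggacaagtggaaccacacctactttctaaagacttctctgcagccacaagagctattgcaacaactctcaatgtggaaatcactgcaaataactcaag
C9: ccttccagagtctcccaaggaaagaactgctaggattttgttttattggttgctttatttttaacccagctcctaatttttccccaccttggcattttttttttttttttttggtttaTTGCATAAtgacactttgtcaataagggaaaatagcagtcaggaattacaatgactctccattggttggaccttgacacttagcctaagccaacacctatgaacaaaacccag
C8b: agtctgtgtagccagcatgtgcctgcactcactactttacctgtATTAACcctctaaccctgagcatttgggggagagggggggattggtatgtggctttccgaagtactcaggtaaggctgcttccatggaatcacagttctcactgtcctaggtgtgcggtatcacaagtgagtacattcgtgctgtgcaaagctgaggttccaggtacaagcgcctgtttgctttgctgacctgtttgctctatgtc
F11: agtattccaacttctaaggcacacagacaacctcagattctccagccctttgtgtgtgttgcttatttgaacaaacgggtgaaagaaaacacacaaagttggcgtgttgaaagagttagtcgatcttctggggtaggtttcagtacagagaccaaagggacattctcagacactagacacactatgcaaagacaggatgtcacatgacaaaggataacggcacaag
Klkb1: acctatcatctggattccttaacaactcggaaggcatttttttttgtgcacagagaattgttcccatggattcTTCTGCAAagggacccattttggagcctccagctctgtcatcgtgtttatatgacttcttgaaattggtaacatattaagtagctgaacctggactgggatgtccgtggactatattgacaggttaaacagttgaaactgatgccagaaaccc

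Within the 250 bases before the start of the table, *Fga* and *Fgb* each held an HNF1, a C/EBP and a STAT match, and *Fgb* also an IL-6 response match. *Fgg* held an IL-6 response match and an AhR core (GCGTG). The HNF1 match of *Fga* lies 43 to 38 bases before the start, in bases that GENCODE places in the gene and that are not printed. *C9* and *Klkb1* each held a C/EBP match and *C8b* an HNF1 match. *F11* held an AhR core and, in unprinted bases 17 to 10 before the start, a C/EBP match. *C6* held none of these motifs, but 143 of its 250 bases lie in the gene and are not printed. All 250 bases were searched, of which only 107 lie before that gene. Matches also occurred elsewhere: GTTAAT occurred in 6.52% of the 27025 promoters of the same length and in 9 of the 31, TTGCNNAA in 9.55% and in 9, TTCNNNGAA in 7.18% and in 6, and CTGGGAA in 9.08% and in 5. Each of these motifs thus took a larger share of the 31 than of all promoters, a difference that was not tested. The AhR core, searched on both strands as well, occurred in 28.2% of all promoters and in 3 of the 31 (*Fgg*, *F11* and *Vtn*), a smaller share. CAAAGTCCA (HNF4) and the palindrome of the glucocorticoid receptor each occurred in 0.381% of all promoters and in 0 of the 31. The letters of the STAT and IL-6 response motifs can overlap, and a match describes these letters only.

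Levels between genes were compared per length, as FPKM. The fibrinogen genes led the 40, with mean FPKM over the 12 livers of 5174 for *Fgb*, 2835 for *Fgg* and 2095 for *Fga*, ranks 12, 36 and 46 among all genes of the table. *C3*, the central complement component, followed with 1757 FPKM and *Vtn*, which encodes vitronectin, with 1352 FPKM. The lowest levels were those of *Pros1* (protein S, 16.5 FPKM), *Masp1* (19.7 FPKM) and *F11* (factor XI, 27.1 FPKM). The terminal component *C6* had the widest relative range, from 4.76 to 142 FPKM between single livers. Several of these genes are neighbours: *Fgg*, *Fga* and *Fgb* lie within 11.1 and 8.62 kb of each other on chromosome 3, *C8b* lies 11.1 kb from *C8a* on chromosome 4, *F11* lies 4.63 kb from *Klkb1* on chromosome 8, and *Cfb* ends 87 bases from *C2* on chromosome 17.

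The first comparison asked what the ethanol diet did in WT livers. Of the 40 genes, 7 fell and 0 rose at an adjusted *P* value under 0.05 (edgeR), which is 17.5% of them, where 8.72% of all tested genes were called, 4.48% lower and 4.24% higher. The 40 are well expressed genes, and of the 2259 other tested genes with a mean of at least 56.1 CPM, the level of the lowest of the 40, 14.9% were called. Without adjustment, 18 of the 40 had a *P* value under 0.05, beside 26.1% of all tested genes, and 21 of the 40 did not overlap between the diets, beside 32.9%. Complement held 5 of the 7 (*C6*, *C9*, *C8b*, *Hc* and *Masp1*) and clotting 2 (*F11* and *Pros1*). By role, 4 of the 6 terminal complement genes fell, 1 of the 6 genes that start the cascade, and none of the 4 convertase genes or the 3 fibrinogen genes was called. The median log2 FC was -0.19 over the 18 complement genes, -0.17 over the 20 clotting genes and 0.01 over all tested genes, and the 6 terminal genes had a median of -1.47.

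*C6*, which joins C5b in the first step of the pore, stood at 304, 434 and 353 CPM in the 3 WT con livers and at 13.6, 32.4 and 27.1 CPM in the WT EtOH livers. No EtOH liver came near the lowest con liver, and *C6* was 93.3% lower (log2 FC -3.90 ± 0.34 SE, adjusted *P* = 0.00189 in edgeR). *C9*, the subunit that forms the ring of the pore, went from 547, 664 and 687 CPM to 167, 227 and 275 CPM, 64.8% lower (log2 FC -1.51 ± 0.20, adjusted *P* = 0.00707 in edgeR). *C8b*, the beta chain of C8, went from 445, 573 and 462 CPM to 168, 92.7 and 218 CPM, 67.7% lower (log2 FC -1.63 ± 0.29, adjusted *P* = 0.0199 in edgeR). Its neighbour *C8a*, the alpha chain, was at 826, 1139 and 1078 CPM and at 286, 230.0 and 612 CPM, and its log2 FC of -1.43 ± 0.36 missed the threshold (adjusted *P* = 0.0522 in edgeR). *C8g*, the gamma chain, a lipocalin outside the family of pore-forming proteins, was at 312 ± 4.1 and 276 ± 17.9 CPM (SD, n = 3; adjusted *P* = 0.299 in edgeR). The 3 chains of C8 therefore did not carry the same call. *Hc*, which encodes C5, was 35.4% lower and *Masp1*, a protease of the lectin pathway, 32.9% lower (adjusted *P* = 0.0356 and 0.0208 in edgeR). Both of these calls were lost in 5 of 6 fits made without a liver, and that of *C8b* was lost when any of the 3 con livers was left out.

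Among clotting genes, *F11* encodes factor XI of the contact pathway. It stood at 139, 121 and 109 CPM in WT con livers and at 25.4, 15.6 and 31.9 CPM in WT EtOH livers, 80.3% lower (log2 FC -2.34 ± 0.25, adjusted *P* = 0.00391 in edgeR). The groups were far apart, whereas *Klkb1*, the next gene on the chromosome and the source of plasma prekallikrein, was at 296 ± 35 and 219 ± 23.9 CPM (SD, n = 3; log2 FC -0.43 ± 0.13, adjusted *P* = 0.0865 in edgeR). *Pros1*, the vitamin K-dependent cofactor of activated protein C, went from 57.3, 59.2 and 69.5 CPM to 39.9, 44.1 and 41.6 CPM, 32.5% lower (adjusted *P* = 0.0206 in edgeR). The *Pros1* groups did not overlap, but the call was lost without WT con liver 2, WT con liver 3 or WT EtOH liver 3. The fibrinogen genes had log2 FC of -0.64 ± 0.19 (*Fga*), -0.79 ± 0.22 (*Fgb*) and -0.57 ± 0.18 (*Fgg*), with adjusted *P* values of 0.0857, 0.0699 and 0.104 in edgeR. The inhibitor genes *Serpinc1* (antithrombin) and *Serpind1* (heparin cofactor II) had log2 FC of 0.37 and 0.15 and passed no threshold. The calls of *C6*, *C9* and *F11* held in every fit made without a liver. That of *Hc* ended in a single fit of all 12 libraries, and those of *Hc* and *Pros1* with limma on log2(FPKM + 1). Being bulk livers, these samples cannot tell fewer cells of a type apart from less RNA per cell. In the same comparison 2 of 7 stellate cell markers were called higher, their sum going from 219 to 300.3 CPM in WT con to 313 to 359 CPM in WT EtOH livers. Of 6 neutrophil and monocyte markers, 1 was called higher, and their sum, most of it *Lyz2*, was at 60.3 to 63.7 and 52.2 to 140.1 CPM. Of 7 hepatocyte markers, 1 was called lower. None of 8 Kupffer cell markers was called, but WT EtOH liver 2 stood apart with a sum of 810 CPM beside 310 and 314 CPM in the other two. No marker of these lists was at 0 in a whole group, and their part in the values was not tested.

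**Figure D1:**
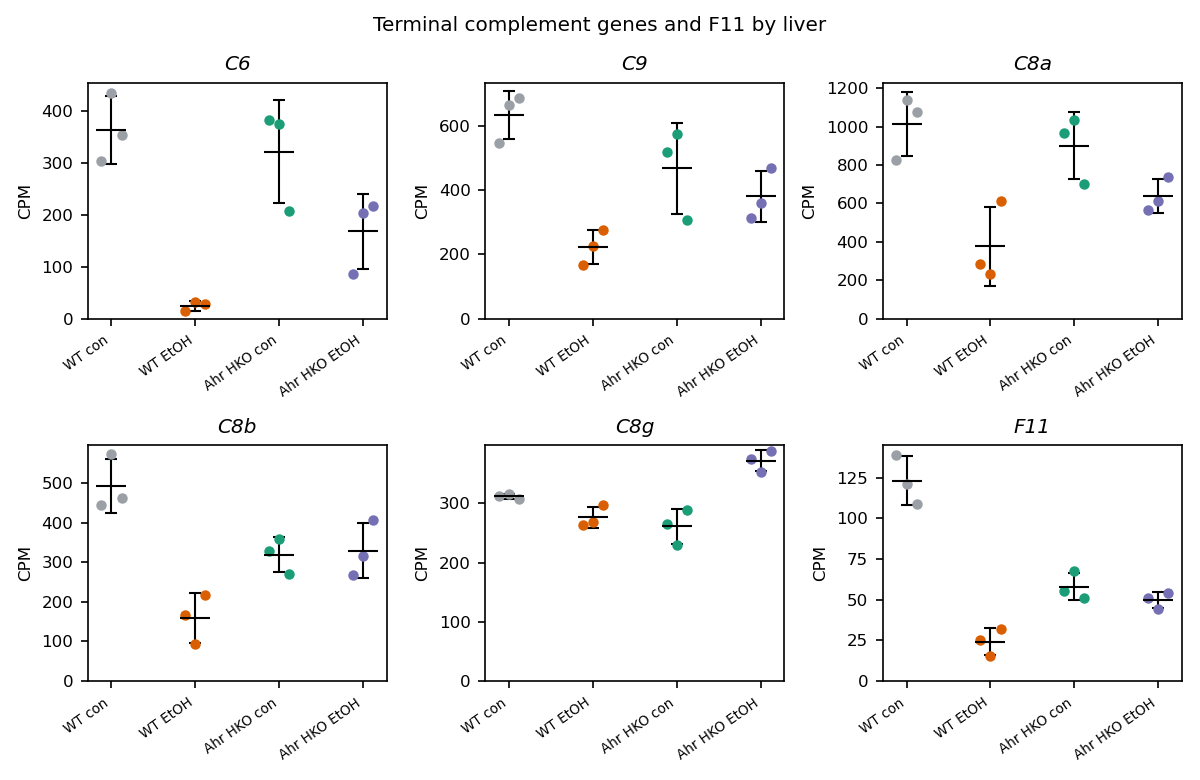
CPM (y axis) of *C6*, *C9*, *C8a*, *C8b*, *C8g* and *F11* in each liver of the 4 groups (x axis), with a horizontal line at the mean and bars for the SD of 3 livers. In WT mice, *C6* lies between 13.6 and 32.4 CPM on the ethanol diet and between 304 and 434 CPM on the control diet, while *C8g* stays between 263 and 315 CPM.

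The second comparison set *Ahr* HKO against WT livers on the control diet. Of the 40 genes, 3 rose and 9 fell at an adjusted *P* value under 0.05 in edgeR, 30% of them, and 29.7% of all tested genes were called (15.3% higher, 14.4% lower), so the share of the 40 was close to that of the table, and 37.6% of the 2259 other genes at their level were called. An unadjusted *P* value under 0.05 was found for 18 of the 40, beside 42.1% of all tested genes, and 22 did not overlap between the genotypes, beside 47.3%. The 3 that rose were the fibrinogen genes. The 9 that fell were *C1ra*, *C1s1*, *C2* and *C8b* in complement and *F7*, *F11*, *Klkb1*, *F13b* and *Serpind1* in clotting. The medians were -0.17 for complement, -0.13 for clotting and 0.00 for all tested genes.

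*Fga* encodes the alpha chain of fibrinogen and stood at 4392, 6290.5 and 5526 CPM in WT con livers against 14686, 14946 and 17687 CPM in *Ahr* HKO con livers, 2.92 times as high (log2 FC 1.55 ± 0.20, adjusted *P* = 0.00246 in edgeR). *Fgb*, the beta chain, was at 5869, 9431 and 7843 CPM against 18782, 17278 and 23337 CPM, 2.57 times as high (log2 FC 1.36 ± 0.24, adjusted *P* = 0.00662 in edgeR). *Fgg*, the gamma chain, was at 3345, 4729 and 3986 CPM against 9699.6, 9711 and 12636 CPM, 2.66 times as high (log2 FC 1.41 ± 0.21, adjusted *P* = 0.00354 in edgeR). All 3 chains were higher in each *Ahr* HKO con liver than in any WT con liver. Fibrinogen is assembled from equal numbers of the 3 chains, and the ratio of *Fgb* to *Fga* in FPKM stayed between 2.22 and 2.85 and that of *Fgg* to *Fga* between 1.24 and 1.57 over all 12 livers. The ratio of *Fgg* to *Fga* was lowest in the *Ahr* HKO con livers, at 1.25, 1.24 and 1.33, beside 1.38 or more in every liver of the other groups. The 3 genes together summed to 17137 ± 3428 CPM in WT con and 46254 ± 6443 CPM in *Ahr* HKO con livers (SD, n = 3), while the other 17 clotting genes summed to 12703 ± 416 and 11722 ± 508 CPM. Markers of neutrophils and monocytes were called higher in the same comparison for 3 of 6 genes. Their sum lay between 60.3 and 63.7 CPM in WT con and between 66.9 and 174 CPM in *Ahr* HKO con livers with none of the 6 at 0. *Lyz2* made up most of it, at 57.1, 54.7 and 57.2 CPM in WT con and at 157, 111 and 54.6 CPM in *Ahr* HKO con livers. The other markers of that list were each at 6.55 CPM or less in these livers. Kupffer cell markers were called higher for 1 of 8, their sum being at 348 to 460.4 and 329 to 899.7 CPM with none at 0. None of 7 hepatocyte markers was called. Of the other lists, 1 of 6 sinusoidal endothelium and 1 of 5 cholangiocyte markers were higher and 1 of 7 stellate cell markers was lower. Among 6 lymphocyte markers 1 was higher and 2 were lower, and 1 of 5 tested platelet and erythroid markers was lower. The part of these cells in the fibrinogen values was not tested.

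**Figure D2:**
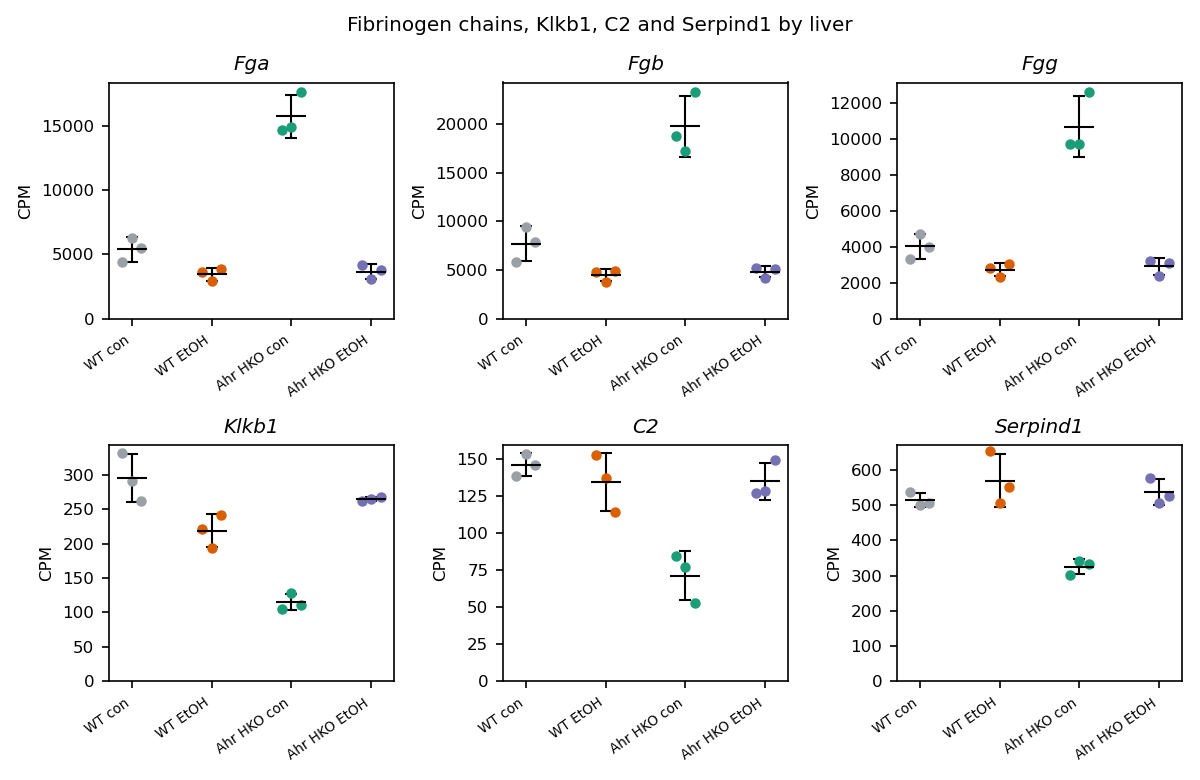
CPM (y axis) of *Fga*, *Fgb*, *Fgg*, *Klkb1*, *C2* and *Serpind1* in each liver of the 4 groups (x axis), with the mean as a horizontal line and the SD of 3 livers as bars. The *Ahr* HKO con livers are the highest group for the 3 fibrinogen genes (14686 to 17687 CPM for *Fga*) and the lowest group for the other 3 (105 to 128 CPM for *Klkb1*).

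The genes that fell on the control diet belonged to several steps. *Klkb1* stood at 333, 292 and 263 CPM in WT con and at 105, 128 and 111 CPM in *Ahr* HKO con livers, 61.2% lower (log2 FC -1.37 ± 0.13, adjusted *P* = 0.00111 in edgeR). Its neighbour *F11* was at 55.7, 67.7 and 51.0 CPM in *Ahr* HKO con livers, 52.8% below WT con livers (log2 FC -1.08 ± 0.14, adjusted *P* = 0.00258 in edgeR). Neither gene overlapped between the genotypes. *C2*, the protease of the classical convertase, went from 139, 154 and 146 CPM in WT con to 84.4, 77.0 and 52.7 CPM, 51.2% lower (log2 FC -1.04 ± 0.18, adjusted *P* = 0.00597 in edgeR). *Serpind1* went from 539, 500.3 and 507 CPM to 302, 340.3 and 334 CPM, 36.9% lower (log2 FC -0.66 ± 0.11, adjusted *P* = 0.00495 in edgeR), and *C8b* was 35.2% lower (adjusted *P* = 0.0218 in edgeR). None of these groups overlapped. *F7*, the factor that pairs with tissue factor, was 31.8% lower, *F13b*, a carrier subunit of the factor that crosslinks fibrin, 32.0% lower, and the C1 proteases *C1ra* and *C1s1* 28.0% and 26.7% lower. The calls of *C8b*, *C1s1* and *F13b* were lost in 3, 4 and 4 of 6 fits made without a liver, and that of *C1ra* without WT con liver 2. With limma on quantile-normalized log2(FPKM + 1) those of *C8b* and *C1s1* ended. *C3* stood at 8291 ± 1914 and 12319.7 ± 1123 CPM (SD, n = 3; log2 FC 0.57 ± 0.22, adjusted *P* = 0.0892 in edgeR), and *C6* and *C9*, which fell with ethanol in WT livers, had log2 FC of -0.18 ± 0.25 and -0.44 ± 0.24 with adjusted *P* values of 0.639 and 0.205.

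On the ethanol diet, *Ahr* HKO and WT livers differed in 1 of the 40 genes, where 1.06% of all tested genes and 2.48% of the 2259 genes at their level were called. This was *C6*, at 85.5, 203 and 216 CPM in *Ahr* HKO EtOH livers against 13.6, 32.4 and 27.1 CPM in WT EtOH livers, 6.89 times as high (log2 FC 2.78 ± 0.44, adjusted *P* = 0.0436 in edgeR). The groups did not overlap, but the call was lost in 5 of 6 fits made without a liver, the exception being the fit without *Ahr* HKO EtOH liver 1, and with limma on quantile-normalized log2(FPKM + 1). Without adjustment, 6 of the 40 had a *P* value under 0.05, beside 21% of all tested genes, and 8 did not overlap, beside 27.9%. The 6 terminal genes all had a log2 FC above 0, with a median of 0.77, among them *C8b* (1.05 ± 0.31, adjusted *P* = 0.13 in edgeR) and *C9* (0.77 ± 0.22, adjusted *P* = 0.124). *F11* had a log2 FC of 1.04 ± 0.24 (adjusted *P* = 0.0887 in edgeR). The fibrinogen genes had log2 FC between 0.08 and 0.11. The medians were 0.09 for complement, 0.02 for clotting and -0.01 for all tested genes.

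The fourth comparison asked what the ethanol diet did in *Ahr* HKO livers. At an adjusted *P* value under 0.05 in edgeR, 7 of the 40 rose and 6 fell, 32.5% of them, beside 31.2% of all tested genes (15% higher, 16.1% lower) and 38.6% of the 2259 genes at their level. Unadjusted, 19 of the 40 had a *P* value under 0.05, beside 44.1%, and 20 did not overlap between the diets, beside 49.8%. *C1ra*, *C1s1*, *C2* and *C8g* rose in complement and *Klkb1*, *Serpinc1* and *Serpind1* in clotting. *C4bp*, an inhibitor of the classical convertase, fell in complement, and *Fga*, *Fgb*, *Fgg*, *Pros1* and *Cpb2* fell in clotting. The medians were -0.09 for complement, -0.03 for clotting and -0.02 for all tested genes.

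Among the 40 genes, the fibrinogen genes moved furthest. *Fga* was at 4176, 3069.5 and 3751 CPM in *Ahr* HKO EtOH livers, 76.8% below the con livers (log2 FC -2.11 ± 0.19, adjusted *P* = 0.00142 in edgeR). *Fgb* was at 5203, 4202 and 5055 CPM, 75.7% lower, and *Fgg* at 3229, 2385 and 3101 CPM, 72.8% lower (adjusted *P* = 0.00164 and 0.00215 in edgeR). These levels lay near those of WT EtOH livers, where *Fga* was at 3625, 2902 and 3847 CPM. *Pros1* went from 83.0, 76.3 and 74 CPM in con to 41.3, 43.9 and 47.1 CPM in EtOH livers, 43.3% lower (log2 FC -0.82 ± 0.10, adjusted *P* = 0.00283 in edgeR). *Pros1* was the member called lower with ethanol in both genotypes. *Cpb2*, a carboxypeptidase that protects fibrin from lysis, was 30.3% lower and *C4bp* 34.9% lower (adjusted *P* = 0.0414 and 0.0125 in edgeR). The call of *Cpb2* was lost in 5 of 6 fits made without a liver. All 8 Kupffer cell markers and 4 of 6 neutrophil and monocyte markers fell in the same comparison. The sum of the latter, most of it *Lyz2*, lay between 32.8 and 41.7 CPM in *Ahr* HKO EtOH livers and that of the former between 199 and 249.5 CPM, with no marker at 0. Of the other lists, 3 of 6 sinusoidal endothelium and 1 of 5 cholangiocyte markers fell and 1 of 7 hepatocyte markers rose. Of 7 stellate cell markers 1 rose and 1 fell, and no lymphocyte, platelet or erythroid marker was called. The part of these cells in these values was not tested.

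Of the genes that rose with ethanol in *Ahr* HKO livers, *Klkb1* reached 262, 265 and 268 CPM, 2.31 times the con level (log2 FC 1.21 ± 0.11, adjusted *P* = 0.00142 in edgeR). *C2* reached 127, 129 and 149.5 CPM, 1.89 times the con level (adjusted *P* = 0.0114), and *Serpind1* reached 578, 506 and 527 CPM, 1.65 times (adjusted *P* = 0.00553). Each EtOH liver stood above each con liver for these 3 genes, and the EtOH values lay within the range of the WT groups. *C8g* went from 266, 230.2 and 288 CPM to 375, 353 and 389 CPM, 1.43 times the con level (adjusted *P* = 0.02 in edgeR), above every WT liver. *Serpinc1*, *C1s1* and *C1ra* were 1.49, 1.46 and 1.31 times as high. The calls of *C8g* and *Serpinc1* were lost in 3 of 6 fits made without a liver and that of *C1ra* in all 6. With limma on quantile-normalized log2(FPKM + 1) those of *C1ra* and *C1s1* ended. *C6* stood at 383, 375 and 206 CPM in con and at 85.5, 203 and 216 CPM in EtOH livers, so that the groups overlapped (log2 FC -0.94 ± 0.38, adjusted *P* = 0.102 in edgeR). *C9* at 519, 576 and 308 CPM and 312, 359.6 and 469 CPM, and *C8b* at 328, 359 and 272 CPM and 267, 316 and 406 CPM, overlapped likewise. *F11* stood at 51.0, 44.4 and 54.2 CPM in EtOH livers (log2 FC -0.22 ± 0.14, adjusted *P* = 0.253).

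**Figure D3:**
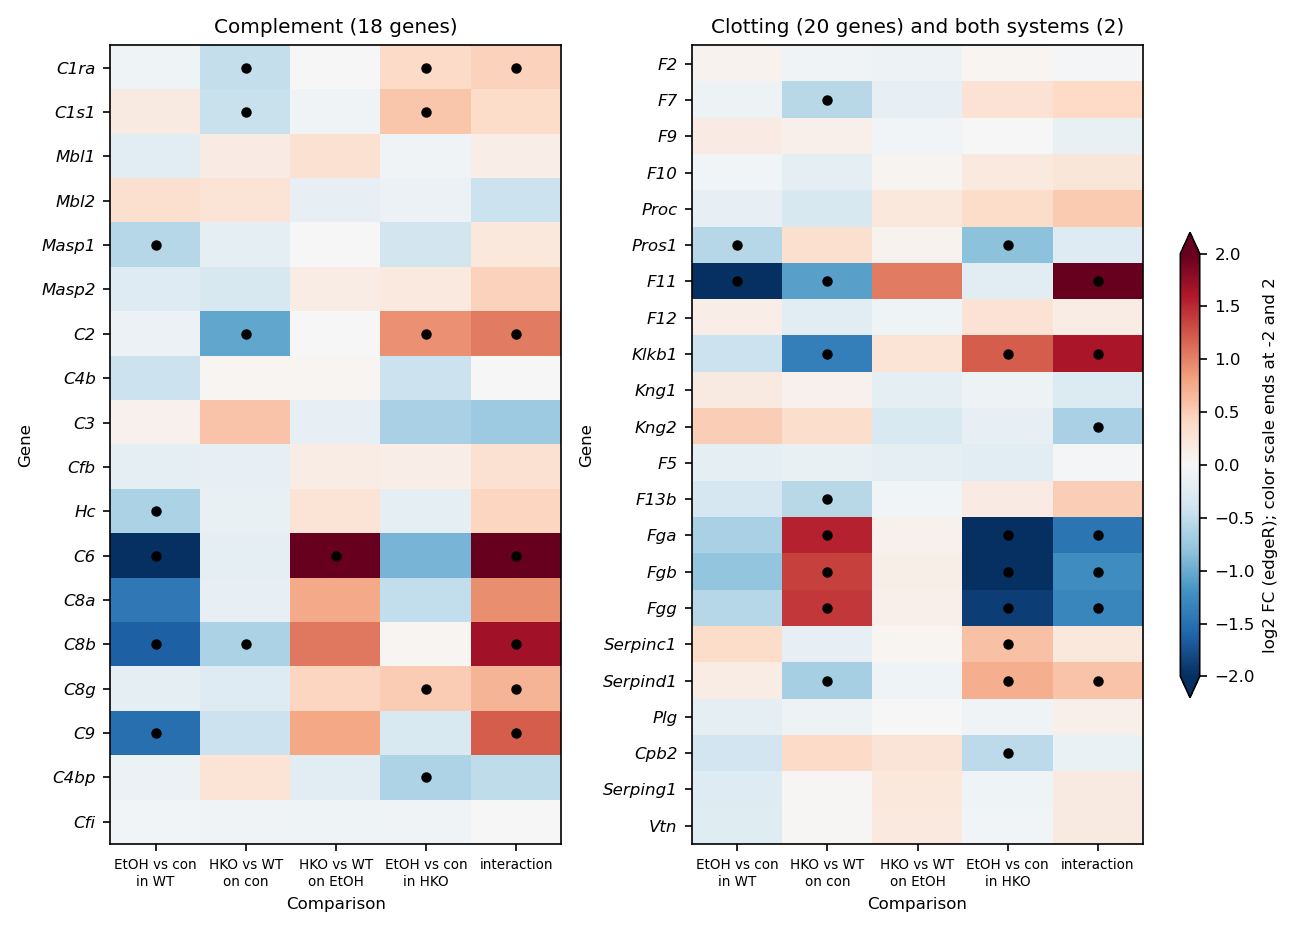
Log2 FC (color, from -2 to 2 with larger values at the end colors) of the 18 complement genes (left) and of the 20 clotting genes with *Serping1* and *Vtn* (right), by gene (y axis) and comparison (x axis). A dot marks an adjusted *P* value under 0.05 in edgeR, of which there are 46 over the 5 comparisons, on 22 of the 40 genes.

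Whether the diet effect differed between genotypes was tested as the interaction of genotype and diet, the log2 FC of ethanol in *Ahr* HKO livers minus that in WT livers, with all 12 libraries. In edgeR, 13 of the 40 genes passed an adjusted *P* value of 0.05, 32.5% of them, beside 22.3% of all tested genes (11.2% above 0, 11.1% below 0) and 30% of the 2259 genes at their level, and 20 passed without adjustment, beside 36.4%. With an FC above 1.5 required as well, the 5 comparisons called 5, 8, 1, 8 and 11 of the 40 in the order given here, beside 6.58%, 19.8%, 1.03%, 22% and 18.7% of all tested genes. Complement held 6 of the 13, all above 0, and clotting 7, of which 3 were above 0 and 4 below. The median difference was 0.40 over complement, 0.03 over clotting and -0.03 over all tested genes, and 13 of the 18 complement genes were above 0, beside 10 of the 20 clotting genes and 6782 of the 14038 tested genes.

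Within complement, the 3 largest positive differences belonged to terminal genes. That of *C6* was 2.96 ± 0.55 (adjusted *P* = 0.00437 in edgeR), that of *C8b* 1.68 ± 0.38 (0.0104), that of *C9* 1.21 ± 0.35 (0.0308) and that of *C8g* 0.69 ± 0.15 (0.0078). *C8a* had a difference of 0.93 ± 0.44 and *Hc* of 0.43 ± 0.29, neither of which passed (adjusted *P* = 0.15 and 0.314 in edgeR). All 6 terminal genes lay above 0, with a median of 1.07. Outside the terminal genes, *C2* had a difference of 1.04 ± 0.23 (adjusted *P* = 0.0106 in edgeR), the fourth largest in complement, and *C1ra* one of 0.47 ± 0.13 (0.0266), while *C3* had a difference of -0.73 ± 0.30 that did not pass (0.099). *C1ra* was lost in 6 and *C9* in 5 of the 12 fits made without a liver, and both with limma on log2(FPKM + 1), quantile-normalized or not. In the same test 6 of 6 neutrophil and monocyte markers (median difference -2.62) and 4 of 8 Kupffer cell markers (median -1.66) were called lower, as were 6 of 10 complement genes of leukocytes. Of 7 hepatocyte markers, 1 was called above 0. Below 0 were 1 of 6 sinusoidal endothelium, 1 of 5 cholangiocyte and 1 of 7 stellate cell markers. The part of these cells in the differences of the 40 genes was not tested.

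In clotting the differences went both ways. The contact factors *F11* (2.12 ± 0.31, adjusted *P* = 0.00128 in edgeR) and *Klkb1* (1.64 ± 0.17, adjusted *P* = 0.000314) lay above 0, and the kininogen gene *Kng2* below it (-0.66 ± 0.20, adjusted *P* = 0.0386). The neighbours *F11* and *Klkb1* differed in their diet effects. *F11* had log2 FC of -2.34 in WT and -0.22 (not called) in *Ahr* HKO livers, and *Klkb1* had -0.43 (not called) and 1.21. Both genes were called lower in *Ahr* HKO con than in WT con livers, as given above. *Serpind1* had a difference of 0.58 ± 0.16 (adjusted *P* = 0.0271 in edgeR), and *Fga*, *Fgb* and *Fgg* had differences of -1.46 ± 0.26, -1.25 ± 0.29 and -1.31 ± 0.27 (adjusted *P* = 0.00376, 0.0121 and 0.0068). *Serpind1* and *Kng2* were each lost in 7 of the 12 fits made without a liver, and *Serpind1* with limma on log2(FPKM + 1).

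**Figure D4:**
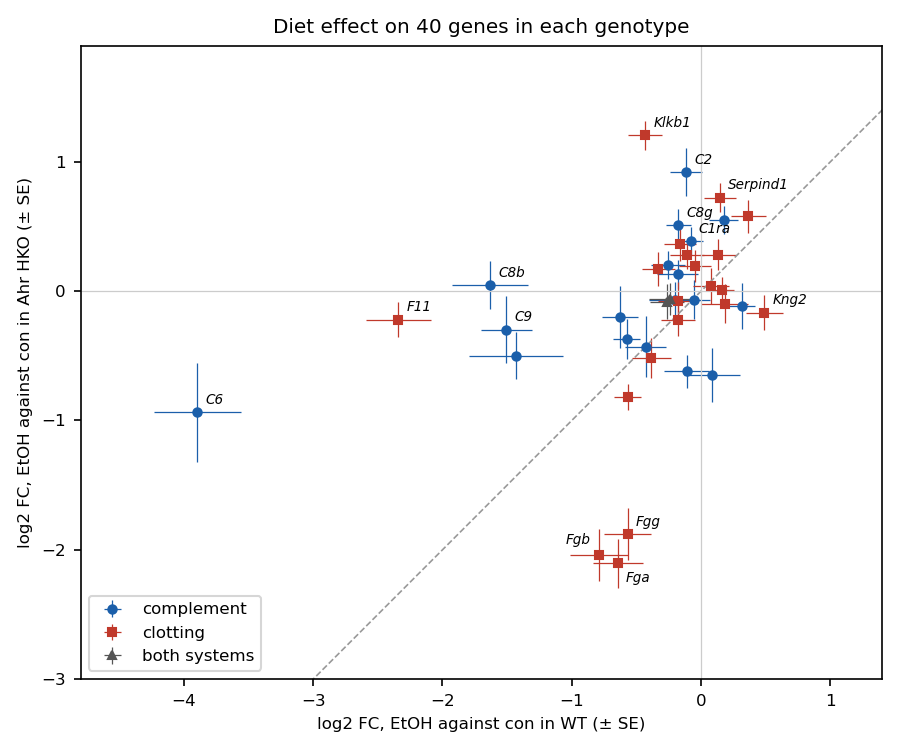
Log2 FC of EtOH against con in WT livers (x axis) and in *Ahr* HKO livers (y axis) for the 40 genes, with bars of 1 SE. Names mark the 13 genes with an interaction, the dashed line marks equal effects, and *C6* (-3.90 and -0.94) and the fibrinogen genes (*Fga*, -0.64 and -2.11) lie on opposite sides of it.

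Summed levels are given as a description, with no test between the systems. By their means, complement with *C3* and fibrinogen ranked the 4 groups in the same order, *Ahr* HKO con highest and WT EtOH lowest. The complement means of the WT EtOH and *Ahr* HKO EtOH groups differed by less than their SD. The 18 complement genes summed to 18382 ± 3098 CPM in WT con, 15998 ± 1291 in WT EtOH, 21473 ± 117 in *Ahr* HKO con and 16084 ± 2072 in *Ahr* HKO EtOH livers (SD, n = 3). Without *C3* these sums were 10092 ± 1185, 7212 ± 564, 9154 ± 1181 and 8219 ± 816 CPM. The 6 terminal genes summed to 3817 ± 439, 1706 ± 400.1, 3175 ± 698 and 2676 ± 393 CPM, lowest in WT EtOH livers. Fibrinogen summed to 17137 ± 3428, 10634 ± 1482, 46254 ± 6443 and 11390.2 ± 1542 CPM, highest in *Ahr* HKO con livers, while the other 17 clotting genes held between 11196 and 14958 CPM in all 12 livers. The median CV between livers of a group was 10.9% to 13.8% for complement genes and 8.23% to 13.4% for clotting genes.

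**Figure D5:**
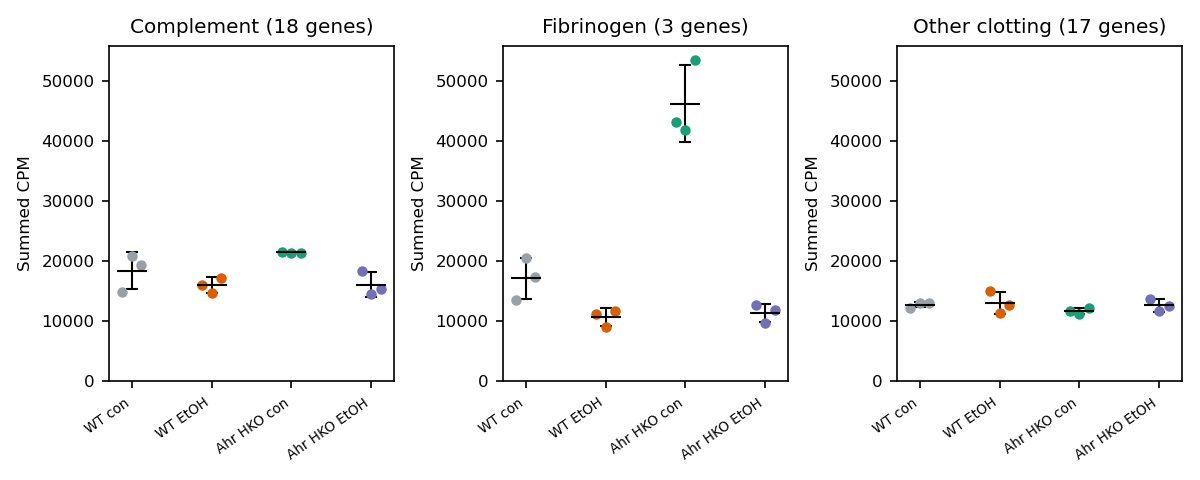
Summed CPM (y axis) of the 18 complement genes, the 3 fibrinogen genes and the other 17 clotting genes in each liver of the 4 groups (x axis), with the mean as a horizontal line and the SD of 3 livers as bars. In the fibrinogen panel the *Ahr* HKO con livers, at 41935 to 53660.1 CPM, lie above the other 9 livers, at 8946 to 20451 CPM.

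A further 18 of the 40 genes were called in none of the 5 tests. They were *F2*, *F9*, *F10*, *Proc*, *F5*, *F12*, *Kng1* and *Plg* in clotting, *C3*, *C4b*, *Cfb*, *Cfi*, *Mbl1*, *Mbl2*, *Masp2* and *C8a* in complement, and *Serping1* and *Vtn*. Prothrombin (*F2*) had log2 FC between -0.10 and 0.08 over the 5 tests and factor IX (*F9*) between -0.15 and 0.16. *Vtn*, whose product restrains the complement pore, lay between -0.24 and 0.20. Values of genes that share sequence with another gene of the table are uncertain. Of the windows of 50 bases in their transcripts, 50.8% of those of *C1ra*, 21.8% of *C1s1*, 34.6% of *C4b*, 17.2% of *Kng1* and 19.4% of *Kng2* also occur in other genes, mainly *C1rb*, *C1s2*, *C4a* and, for the kininogen genes, each other. *C2* (38.7%), *Cfb* (73.0%) and *Klkb1* (42.7%) share windows with gene models of the annotation that are not rows of the gene table analysed here. Further, *C1rb*, the relative of *C1ra*, was at 0 counts in 9 libraries and at 49.2 to 57.1 CPM in 3.

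Genes of both pathways outside the 40 were counted on lists written by hand. Of 19 other complement genes of the liver, 1 was called higher and 2 lower with ethanol in WT livers, 2 higher and 4 lower in *Ahr* HKO con against WT con livers, 1 higher between genotypes on the ethanol diet, 5 higher and 3 lower with ethanol in *Ahr* HKO livers, and 2 above and 2 below 0 for the interaction (edgeR, adjusted *P* under 0.05). Of all tested genes, 8.72%, 29.7%, 1.06%, 31.2% and 22.3% were called in these 5 tests, against which the counts on the lists are to be read. *Colec11*, a lectin of the lectin pathway, rose with ethanol in both genotypes (log2 FC 0.68 ± 0.10 and 0.85 ± 0.11, adjusted *P* = 0.0131 and 0.00285 in edgeR). *Cd55*, which dissolves convertases on cells, was higher in *Ahr* HKO con than in WT con livers (log2 FC 0.98 ± 0.18) and fell with ethanol in *Ahr* HKO livers (-1.13 ± 0.15). Of 10 tested complement genes of leukocytes, 4 were higher in *Ahr* HKO con than in WT con livers and 7 fell with ethanol in *Ahr* HKO livers, *C1qa*, *C1qb* and *C1qc*, the chains of C1q, among them (log2 FC -1.05 ± 0.29, -1.18 ± 0.30 and -1.08 ± 0.29).

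Of 22 other clotting genes of the liver, 5 were higher and 1 lower in *Ahr* HKO con than in WT con livers, 3 rose and 6 fell with ethanol in *Ahr* HKO livers, 1 rose with ethanol in WT livers, 0 were called between genotypes on the ethanol diet and 4 lay below 0 for the interaction, beside 29.7%, 31.2%, 8.72%, 1.06% and 22.3% of all tested genes. *A2m*, the protease inhibitor alpha-2-macroglobulin, stood at 30.8, 5.02 and 9.22 CPM in *Ahr* HKO con livers and at or under 0.0902 CPM in each of the other 9. *Serpina10*, an inhibitor of activated factor X, had log2 FC of 1.6 ± 0.25 between genotypes under the control diet and -1.91 ± 0.14 for ethanol in *Ahr* HKO livers (adjusted *P* = 0.00417 and 0.00115 in edgeR), the same directions as the fibrinogen genes. A list headed clotting of endothelium and platelets held 10 tested genes. Of these, *Plaur* (the urokinase receptor) and *Thbd* (thrombomodulin) were higher and *Adamts13*, which cleaves von Willebrand factor, was lower in *Ahr* HKO con than in WT con livers. Which cells of the liver held these RNAs was not tested.

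Regulators of acute phase and clotting genes were listed as 20 genes, *Ahr* itself among them. Of these, 11 were higher and 3 lower in *Ahr* HKO con than in WT con livers, 1 rose and 7 fell with ethanol in *Ahr* HKO livers, 1 was higher in *Ahr* HKO on the ethanol diet, 0 were called with ethanol in WT livers, and 1 lay above and 3 below 0 for the interaction, beside 29.7%, 31.2%, 1.06%, 8.72% and 22.3% of all tested genes. The 11 that were higher on the control diet include *Ahr*, the gene meant to be deleted. *Socs3*, a feedback inhibitor induced by IL-6, was at 17, 37.9 and 11.7 CPM in WT con, 41.4, 65.1 and 90.0 CPM in *Ahr* HKO con and 11.5, 29.6 and 13.4 CPM in *Ahr* HKO EtOH livers. It was higher in *Ahr* HKO con than in WT con livers and fell with ethanol in *Ahr* HKO livers (log2 FC 1.56 ± 0.46 and -1.85 ± 0.42, adjusted *P* = 0.0396 and 0.0169 in edgeR). *Cebpd*, a transcription factor of the acute phase, had a log2 FC of 1.48 ± 0.22 for the genotypes on the control diet (adjusted *P* = 0.00386 in edgeR), and *Dbp*, a clock-driven factor, of -2.08 ± 0.42 (0.0111). Their part in the values of the 40 genes was not tested.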

How the data were processed

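RNA-seq of 12 mouse livers was used, 4 groups of 3 by genotype and diet. The authors deposited read counts per gene, without normalization, and FPKM values, which are scaled to length and library size. These FPKM were not the counts divided by a fixed length per gene. The ratio of FPKM to CPM in *Masp2*, relative to that in *C1ra*, differed between libraries. The TPM values deposited by the authors were not used. The submitters' processing notes name the build mm10 and FastQC 0.11.7, Trimmomatic 0.38, HISAT2 2.1.0, Bowtie2 2.3.4.1 and StringTie 1.3.4d. How shared reads were assigned is not given in the sources used here. The titles number the livers of a group 1 to 3, the descriptions carry other liver numbers, some of which recur between groups, and the labels name no batch, so *P* values measure the spread between these libraries. No libraries were identical.

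Low counts were filtered by filterByExpr with the 4 groups and libraries scaled with TMM factors over the 12 libraries (edgeR 4.0.16, R 4.3.3). CPM are counts relative to the scaled totals. Each pair of groups was fitted with its 6 libraries by the quasi-likelihood test and the interaction with 12. *P* values were adjusted by Benjamini-Hochberg over the 14038 tested genes. Only the fit of ethanol in WT livers was tried on simulated counts, drawn with the dispersions that edgeR estimated from these data. Each edgeR SE was derived from the test, as the absolute log2 FC divided by the square root of the quasi-likelihood F statistic. Values in every liver were given for the 12 called members with the largest absolute log2 FC, and for listed genes at most 4 per list. Positions and promoters are those of RefSeq on GRCm38. Alternatives used upper-quartile scaling, DESeq2 1.42.0, other filters and fits, limma 3.58.1 on FPKM, and omission of each liver. The members, lists and tests were chosen with earlier results of these data known.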

Additional observations from a re-analysis of the deposited data

Results flagged for a closer look

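For 13 of the 40 genes the diet effect differed between the genotypes by the interaction test in edgeR (adjusted *P* under 0.05, all 12 libraries). The values are the log2 FC of ethanol in *Ahr* HKO livers minus that in WT livers. In complement they were 2.96 for *C6*, 1.68 for *C8b*, 1.21 for *C9*, 1.04 for *C2*, 0.69 for *C8g* and 0.47 for *C1ra*. In clotting they were 2.12 for *F11*, 1.64 for *Klkb1*, 0.58 for *Serpind1*, -0.66 for *Kng2*, -1.25 for *Fgb*, -1.31 for *Fgg* and -1.46 for *Fga*. Groups of 3 livers are too small for the test of single outlying livers.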

How the results depend on the processing

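Of the 46 calls of a gene in a comparison, 29 held in every fit that left out a liver, 31 under all other alternatives and 28 under both. For ethanol in WT livers, 7 of the 40 genes were called, and 16 with DESeq2, 11 with limma on log2(FPKM + 1) without quantile normalization, 4 with the replicate block and 3 to 6 when each liver was left out (4 without WT con liver 1, 3 without WT con liver 2 or 3). For the genotypes on the ethanol diet, 1 was called, and 5 with DESeq2, 3 in a single fit of all 12 libraries, 3 with the replicate block, 0 with limma on quantile-normalized log2(FPKM + 1), 0 on quantile-normalized log2(FPKM + 0.1) and 0 to 1 when each liver was left out (0 without WT EtOH liver 1 or 2 or *Ahr* HKO EtOH liver 2 or 3). For ethanol in *Ahr* HKO livers, 13 were called and 8 with an FC above 1.5 required as well. Limma on log2(FPKM + 1) without quantile normalization moved the median log2 FC of complement from -0.19 to -0.00683 and of clotting from -0.17 to -0.00537 for ethanol in WT livers, of complement from 0.09 to -0.14 for the genotypes on the ethanol diet, and of complement from 0.40 to 0.18 for the interaction. For clotting genes the 2 quantile-normalized pseudocounts and this setting gave medians of -0.18, -0.18 and -0.19 in place of 0.02 between genotypes on the ethanol diet, and -0.12, -0.12 and -0.20 in place of 0.03 for the interaction. For complement in *Ahr* HKO livers both quantile-normalized settings gave -0.29 in place of -0.09. The cause was not tested. Without quantile normalization the median of all tested genes stood at 0.10 for ethanol in WT livers, -0.13 between genotypes on the ethanol diet and -0.14 for the interaction.

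The replicate numbers were not taken to pair the livers, since libraries with the same number had correlations of -0.0884 to 0.178 in their deviations from the group means and not every library correlated best with its own number. With the replicate block, 9, 11 and 12 genes were called for the genotypes on the control diet, ethanol in *Ahr* HKO livers and the interaction. Groups of 3 livers limit the precision, and the lowest of the 40 genes in CPM, *Masp1*, had a mean of 56.1 CPM.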

Other observations

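*Cfd*, which encodes the complement protease factor D and is known as an adipocyte gene, was at 0 counts in the 3 WT EtOH livers, at 0.546, 0.607 and 0.266 CPM in WT con livers, and at 34.7, 0.512 and 2.26 CPM in *Ahr* HKO con livers, where 1 liver stood apart. *C4a*, a relative of *C4b*, stood at 139, 214 and 275 CPM in WT con and at 61.2, 34.6 and 97.2 CPM in WT EtOH livers (log2 FC -1.70 ± 0.39, adjusted *P* = 0.0413 in edgeR), while *C4b* had a log2 FC of -0.43 ± 0.16 (adjusted *P* = 0.144). *Mcfd2*, which helps export clotting factors V and VIII from the endoplasmic reticulum, was the 1 gene of its list of 22 that rose with ethanol in WT livers, from 177, 197 and 168 CPM to 299, 242 and 273 CPM (log2 FC 0.59 ± 0.12, adjusted *P* = 0.0266 in edgeR). *F2r*, which encodes a thrombin receptor, fell in the same comparison, from 40.6, 41.9 and 49.5 CPM to 26.6, 23.9 and 25.1 CPM (log2 FC -0.80 ± 0.11, adjusted *P* = 0.00758 in edgeR).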
